A study of Rattus norvegicus with 3 samples.

Results

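Intermediate filament genes encode the rope-like proteins of the cytoskeleton and of the nuclear lamina. The genes examined were Vim, Des, Nes, Gfap, Krt8, Krt18, Krt19, Lmna and Lmnb1, taken as 9 representatives of the family. Their probes were found by RefSeq accession, which gave 11 probes for these 9 genes among 13301 named genes in all. Single-color Agilent whole rat genome arrays were used, 1 each for 3 cell types of the F344 rat strain. MSCs were mesenchymal stem cells of femur bone marrow, obtained by growth on plastic and not sorted by surface markers. COS1NR is an osteosarcoma line and MFH1NR a malignant fibrous histiocytoma line, each derived from a tumor induced by the chemical carcinogen that the submitters abbreviate 4-HAQO, and both carry a p53 mutation per the methods. Each sarcoma type was represented by 1 line. With 1 array per cell type there were no replicates, so no difference was tested, and the precision of every value is limited by the number of arrays.

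Every value below is a processed spot intensity in the scanner's arbitrary units or a ratio of intensities after each array was divided by its own 75th percentile. Between 56.6% and 59.7% of the spots of an array were called well above background by the scanner software. Where a probe had this call on only 1 of the arrays compared, the ratio is a bound and is written as "at least". The spread of a log2 ratio between spots of the same probe was 0.072, which covers neither cultures nor labeling. Different probes of the same gene gave log2 ratios that differed by a median of 0.28 for COS1NR to MSCs, 0.31 for MFH1NR to MSCs and 0.15 for MFH1NR to COS1NR. The sarcoma arrays were read in the same scan and the MSC array in another. Per the methods, MSCs were also grown with a higher share of fetal bovine serum than the sarcoma lines. Differences between MSCs and a sarcoma thus cannot be told apart from differences of scan or serum. All 4 MSC markers (Thy1, Nt5e, Eng and Cd44) were well above background in MSCs, and in COS1NR and MFH1NR Nt5e had log2 ratios of -3.10 and -2.51. The probes of Cd44 disagreed on the order of the sarcomas, with -0.57 and -0.93 for the brighter and -1.93 and -0.10 for the second, while Thy1 had a bound of -6.96 and a ratio of -0.83, and Eng had bounds of -4.65 and -4.98. So were all 14 macrophage markers, of which 7 had this call in each sarcoma. Their summed level was 173 times the 75th percentile in MSCs, against 9.42 in COS1NR and 4.83 in MFH1NR. Each of the 14 was at least 2-fold lower in both sarcomas, like 13.7% of all genes, with median log2 ratios of -4.74 and -5.37 when bounds were taken at their value, as in all medians of lists below, so that these medians are themselves bounds. Among the 14 were the receptor adaptors Tyrobp with -8.28 and -8.36 and Fcer1g with -7.32 and -5.86. Of 7 osteoblast markers with a probe, 5 were well above background in MSCs and 5 in COS1NR, against 6 in MFH1NR, and Sp7, a transcription factor of osteoblasts, had this call in MFH1NR only. Ibsp (bone sialoprotein) had an intensity of 5269 in MSCs, against 491 in COS1NR and 51.7 in MFH1NR. Of this list, 4 of 5 genes with a ratio were at least 2-fold below MSCs in COS1NR and none higher, and in MFH1NR 2 of 6 were lower and 2 higher. Over all genes with a ratio the shares were 20.1% lower and 20.8% higher in COS1NR and 21.6% and 19.4% in MFH1NR. The osteoblast counts depend on the probe of Col1a1. Its counted probe had log2 ratios of -0.33 and -0.38 in COS1NR and MFH1NR, while the other had -3.69 and -3.35. No defining markers of malignant fibrous histiocytoma were set. In such bulk RNA, fewer cells of a type and less RNA per cell cannot be told apart.

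Intermediate filament proteins share a coiled-coil rod and are sorted into types by sequence. Type I and type II keratins assemble in pairs in epithelia. Type III proteins include vimentin of mesenchymal cells, desmin of muscle and GFAP of astrocytes. Nestin is a large protein that is incorporated into filaments of other members and is known from neural and muscle progenitors. Type V proteins are the lamins, which line the inner nuclear membrane. Lamin A/C is typical of stiff and differentiated tissues, while lamin B1 is found in most nucleated cells and is known to be lost in senescence.

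The sequences 5′ of 4 of the genes are shown because they stand for patterns described below, Krt8 and Krt18 for levels seen in MSCs only, Vim for the same direction in both sarcomas and Nes for opposite directions. They are RefSeq sequences of the GRCr8 build, which had an entry for 8 of the 9 genes. Each runs from 70 bases before a TATA box, or for Nes before the GC box nearest to the start, to the end of that box. Capitals mark a match to TATAA for the TATA box, to GGGCGG for the GC box or to the CCAAT box by the letters of its name. Each was searched on both strands, and matches that overlap were merged.
Vim, chr17:81577109-81577183, plus strand: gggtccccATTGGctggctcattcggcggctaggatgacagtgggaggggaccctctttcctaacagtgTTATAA
Krt8, chr7:135010439-135010513, minus strand: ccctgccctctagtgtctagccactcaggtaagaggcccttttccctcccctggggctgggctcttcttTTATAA
Krt18, chr7:135036056-135036130, plus strand: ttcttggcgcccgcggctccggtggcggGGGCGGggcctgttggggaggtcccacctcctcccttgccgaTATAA
Nes, chr2:175736475-175736550, plus strand: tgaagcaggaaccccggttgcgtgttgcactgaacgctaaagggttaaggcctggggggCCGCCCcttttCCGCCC
Within the 250 bases before the RefSeq start, a TATA box was present in Vim, Krt8 and Krt18 and in 24.0% of all 33469 promoters of the table. A CCAAT box was present in Vim and Lmnb1 and in 34.0% of all promoters. A GC box was found in Vim, Des, Nes, Krt18 and Lmna and in 30.5% of all promoters. None of the 8 promoters held an AP-1 site (TGANTCA), against 6.34% of all. Krt8 and Krt18 lie on the same chromosome with 1 other gene between them in the gene table. These matches describe letters only.

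Of the 9 genes, 5 (Vim, Des, Nes, Lmna and Lmnb1) were well above background on all 3 arrays, as were 59.6% of all named genes. Krt8 and Krt18 had this call in MSCs only, which held for 4.41% of all genes. Gfap and Krt19 had it on no array, like 24.8% of all genes, and no ratio is given for them.

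**Figure D1:**
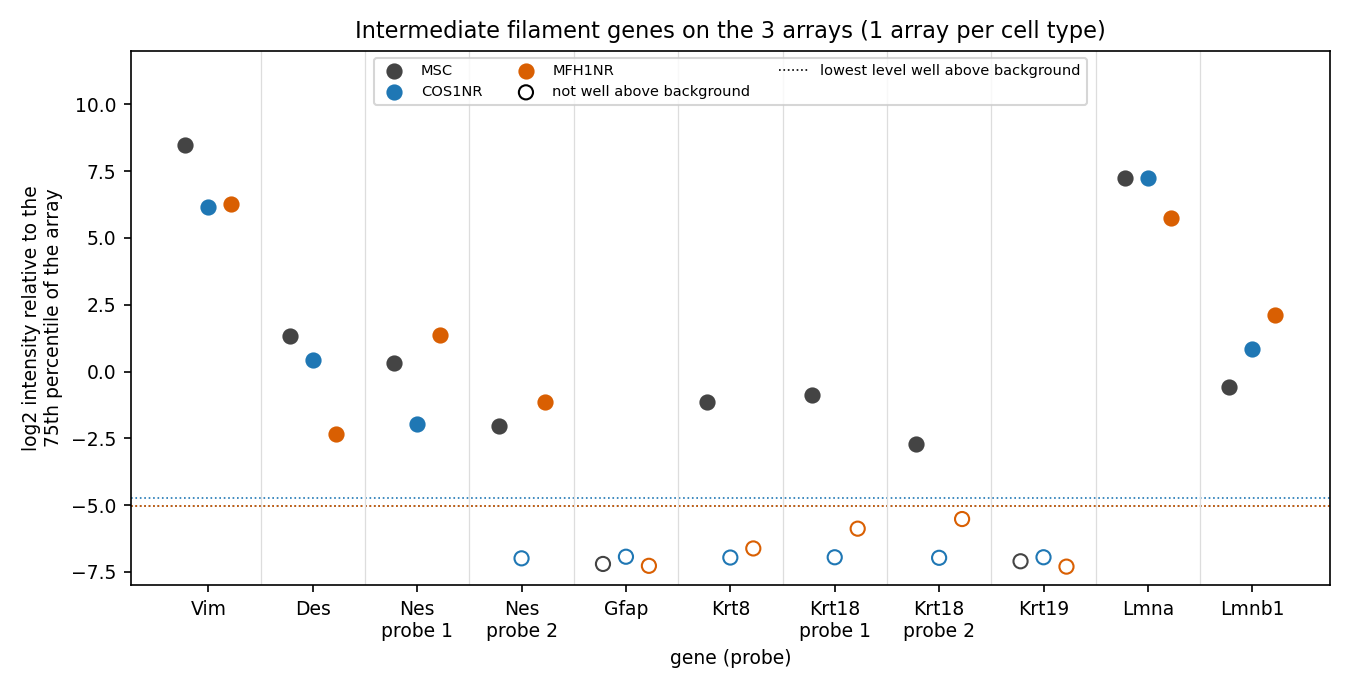
Log2 intensity after division by the array's 75th percentile (y axis) for each probe of the 9 genes (x axis) on the arrays of MSCs, COS1NR and MFH1NR. Open circles are probes not well above background and dotted lines the lowest level with that call on each array; levels can be compared only within a column, where Vim, Krt8 and Krt18 are highest in MSCs, Lmnb1 is lowest in MSCs and Nes is lowest in COS1NR.

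Against MSCs, COS1NR was at least 2-fold lower for 4 genes (Vim, Nes, Krt8 and Krt18), higher for Lmnb1 and under 2-fold apart for Des and Lmna, among the 7 genes with a ratio. Over all genes with a ratio, 20.1% were lower and 20.8% higher by as much, or 40.9% in either direction. MFH1NR was at least 2-fold lower for 5 genes (Vim, Des, Krt8, Krt18 and Lmna) and higher for Nes and Lmnb1, against 21.6% lower, 19.4% higher and 41.0% in either direction over all genes. Krt8 and Krt18 entered these counts through the MSC array alone and could only be lower in the sarcomas. Over the 5 genes seen on all arrays the median log2 ratio was -0.88 in COS1NR and -1.52 in MFH1NR, while over all genes with a ratio it was 0.11 and 0.02. Both sarcomas were at least 2-fold lower than MSCs for Vim, Krt8 and Krt18 (13.7% of all genes) and higher for Lmnb1 (11.4% of all genes). Nes alone was at least 2-fold from MSCs in opposite directions in the sarcomas, as were 2.37% of all genes. Both comparisons rest on the same MSC array.

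**Figure D2:**
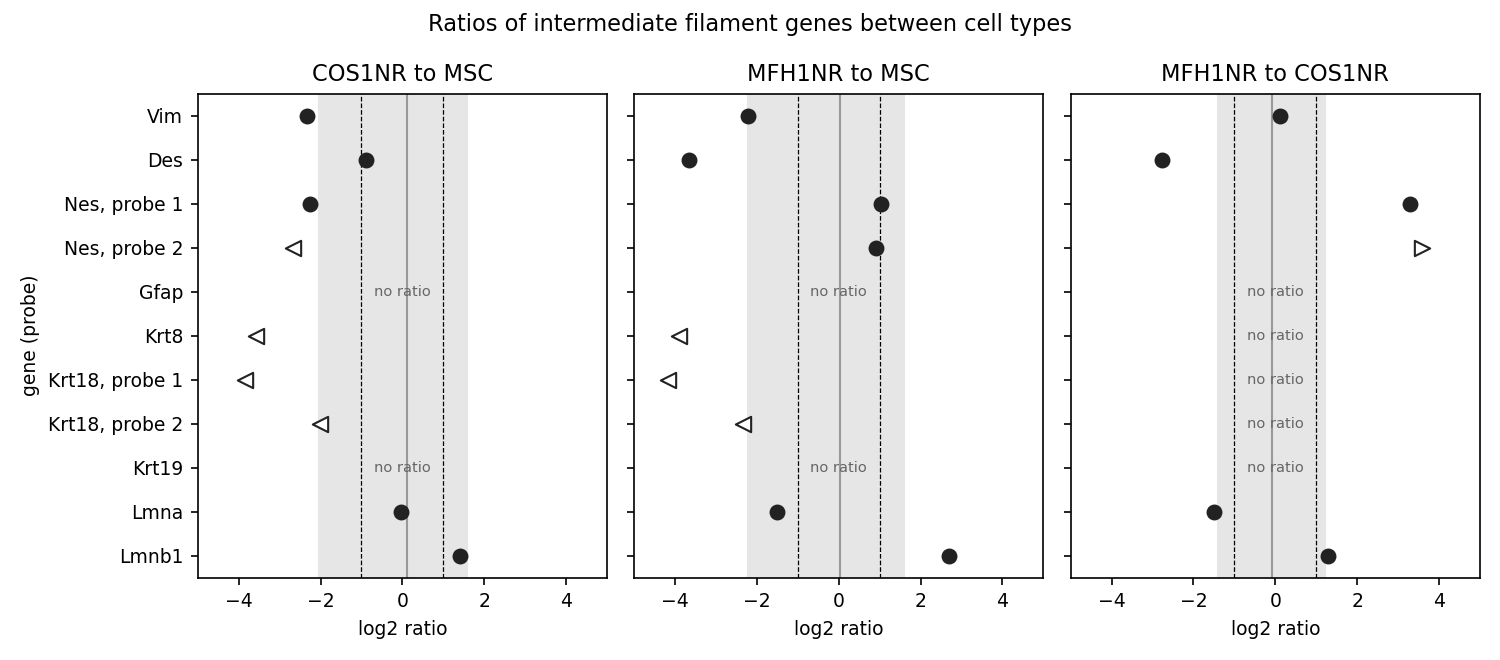
Log2 ratio (x axis) of each probe of the 9 genes (y axis) in the 3 comparisons. Filled circles are measured ratios, open triangles bounds that point to the larger difference, dashed lines the 2-fold limits, and the gray band spans the 10th to the 90th percentile of all genes around their median; Vim lies at -2.33 and -2.23 against MSCs and at 0.11 between the sarcomas.

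Vimentin (Vim), the type III filament of mesenchymal cells, had an intensity of 209445 in MSCs, against 54619 in COS1NR and 75552 in MFH1NR. It was bright on every array, and MSCs stood above both sarcomas. The scaled level was 5.04-fold lower in COS1NR and 4.68-fold lower in MFH1NR, and 8.45% and 9.93% of all genes had a lower ratio in these comparisons. The log2 ratio of 0.11 between the sarcomas was smaller than the typical disagreement of a gene's probes. It depended on the processing and was 0.47 without scaling and with normexp background correction, 0.49 with quantile normalization and 0.90 with spike-in scaling, so whether it exceeded that disagreement is not settled, while MSCs stayed above both sarcomas with each of these.

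Desmin (Des), the type III filament that links myofibrils in muscle, had an intensity of 1471 in MSCs, against 1047 in COS1NR and 196 in MFH1NR. The level in MFH1NR was 12.7-fold below that in MSCs and 6.86-fold below that in COS1NR. In COS1NR the log2 ratio to MSCs was -0.88, under 2-fold, and it reached -1.16 with scaling by the spike-in probes. Synemin (Synm), a filament protein that assembles with desmin and vimentin, had an intensity of 465 in MSCs, against 1299 in COS1NR and 54.5 in MFH1NR. Its log2 ratio to MSCs was thus 1.09 in COS1NR and -3.85 in MFH1NR. Cryab, a small heat shock protein known to bind desmin, had log2 ratios of -2.29 and -5.20. In the comparison of MFH1NR with COS1NR, the log2 ratios of Des, Synm and Cryab were -2.78, -4.94 and -2.92.

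Markers of muscle were set beside desmin. All 7 smooth muscle markers with a probe were well above background in MSCs, against 3 in COS1NR and 4 in MFH1NR, and their summed level was 229 times the 75th percentile in MSCs, against 25.0 in COS1NR and 47.0 in MFH1NR. Tagln, an actin-binding protein of smooth muscle, had an intensity of 78247 in MSCs and 136 in MFH1NR and was not well above background in COS1NR. Myh11, the smooth muscle myosin heavy chain, had log2 ratios of -3.33 and -2.08 by its brighter probe and of -0.87 and -1.06 by the other, and Smtn, a protein of smooth muscle actin filaments, was 4.13-fold and 2.0-fold lower. Tagln and Smtn were lower in COS1NR than in MFH1NR, the reverse of the order of desmin, and the probes of Myh11 disagreed on that order. Of 11 skeletal muscle markers with a probe, Myod1, Myf5, Myf6, Ckm and Chrna1 were well above background on no array. Myog had this call in MFH1NR only, at 58.7, at least 1.94-fold above MSCs and 1.56-fold above COS1NR. Acta1, skeletal muscle actin, had log2 ratios to MSCs of 1.23 and 2.34, and Myh3, the embryonic myosin heavy chain, -0.66 and 1.12. Tnnt1, the slow skeletal troponin T, had a bound of -0.55 and a ratio of 1.23. The fast form Tnnt3 went the other way, with an intensity of 225 in MSCs and no call in the sarcomas, at least 10-fold and 12.6-fold lower. Of the list, 1 of 5 genes with a ratio was at least 2-fold higher and 1 lower in COS1NR, near the 20.8% and 20.1% of all genes, and 3 of 6 were higher and 1 lower in MFH1NR, against 19.4% and 21.6%. These counts depend on the probe. Cav3 had -0.06 and -0.34 by its brighter probe, and bounds of -3.88 and -4.21 by the other. The second probe of Myh3 had the call in MFH1NR only, with a bound of 0.58, under 2-fold. The part of muscle-like cells in the level of desmin was not tested.

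Nestin (Nes) was measured by 2 probes. The brighter one had an intensity of 731 in MSCs, against 200.5 in COS1NR and 2532 in MFH1NR, and the other 143, 6.07 and 453, of which the value in COS1NR was not well above background. By both probes MFH1NR was highest and COS1NR lowest. The level in COS1NR was 4.79-fold below MSCs by the brighter probe and at least 6.41-fold below by the other. In MFH1NR it was 2.05-fold above MSCs by the brighter probe and 1.87-fold by the other, so the increase over MSCs passed 2-fold by the brighter probe only. Between the sarcomas, read in the same scan, MFH1NR was 9.83-fold higher by the brighter probe and at least 12-fold by the other, and only 2.52% of all genes had a higher ratio than the former. A change of at least 2-fold from MSCs that was downward in COS1NR and upward in MFH1NR was seen for 1.05% of all genes.

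Nestin is also a marker of neural progenitors. Of the 6 other markers of such cells with a probe, Sox2, Msi1 and Fabp7 were well above background on no array. Pax6, a transcription factor of neural progenitors, was highest in MFH1NR like nestin, with an intensity of 88.1 there, the only array with this call, at least 2.92-fold above MSCs and 2.33-fold above COS1NR. The summed level of the list was between 0.0928 and 0.151 times the 75th percentile. Among the neurofilaments, which are type IV proteins of neurons, the heavy chain Nefh had an intensity of 513 in MSCs and 4223 in MFH1NR and was not well above background in COS1NR, at 28.8. It was 4.87-fold higher in MFH1NR and at least 23.0-fold lower in COS1NR than in MSCs. The light and medium chains, Nefl and Nefm, were well above background on no array. Nes and Nefh therefore had the same order of cell types.

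**Figure D3:**
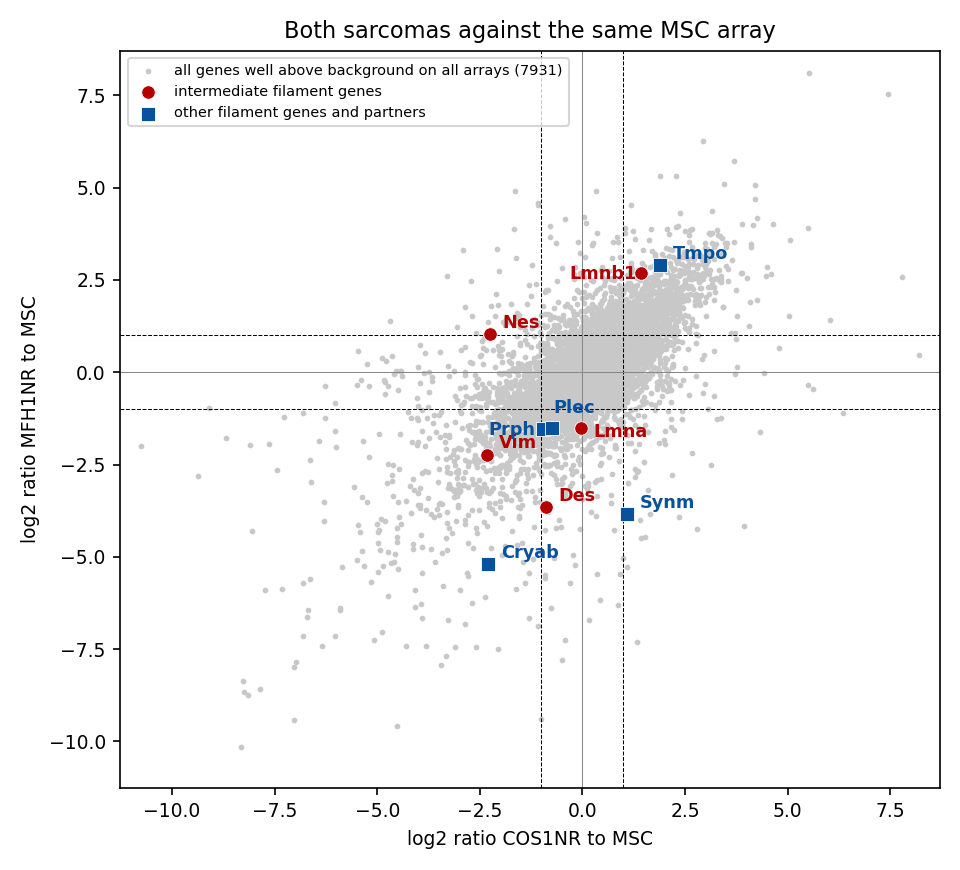
Log2 ratio to MSCs in COS1NR (x axis) and MFH1NR (y axis) for the 7931 genes well above background on all arrays (gray), with 5 of the 9 filament genes (red circles) and 5 related genes (blue squares); dashed lines mark 2-fold. Both axes share the MSC array. Vim lies low on both axes, Lmnb1 beside Tmpo high on both, and Nes and Synm in opposite corners.

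The keratins Krt8 (type II) and Krt18 (type I), partners in simple epithelia, had the same pattern. Krt8 had an intensity of 268 in MSCs, against 6.21 in COS1NR and 10.1 in MFH1NR. The brighter probe of Krt18 had 322, 6.26 and 16.9, and the other probe 90.2, 6.19 and 21.7. By all these probes the MSC array alone was well above background. As bounds, Krt8 was lower in the sarcomas, at least 12-fold in COS1NR and at least 15.1-fold in MFH1NR. Krt18 was at least 14.4-fold and at least 18.1-fold lower by the brighter probe, and at least 4.03-fold and 5.06-fold lower by the other. With normexp background correction the bounds shrank to log2 ratios of -2.45 and -2.28 for Krt8 and -2.90 and -2.66 for Krt18. The order of the sarcomas cannot be given, since neither had a level above background.

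Krt19, the smallest keratin and like Krt18 of type I, had intensities of 4.28 in MSCs, against 6.26 in COS1NR and 6.29 in MFH1NR, none of them well above background. Of 16 other keratins with a probe, 10 were well above background on no array. The 6 that were so on at least 1 array had intensities from 14.0 (Krt76) to 148 (Krt1) in MSCs. In the sarcomas they reached 315 in COS1NR and 471 in MFH1NR, both for Krt1. No ratio or bound of these reached 2-fold below MSCs, and 2 were at least 2-fold higher in each sarcoma, against 20.8% and 19.4% of all genes. Krt15 had log2 ratios of 1.06 and 1.71 and Krt76 of at least 1.07 and 1.66, while Krt1 had 0.70 and 0.91, Krt14 had 0.31 and 0.20, Krt5 had at least 0.66 and 0.41, and Krt75 was seen in MSCs only, at 28.8. Bounds of over 2-fold below MSCs in both sarcomas were thus seen for Krt8 and Krt18, while those of Krt75 were -0.37 and -0.69. The scaled log2 level of Krt75 was -4.35 in MSCs, too near the limits of -4.72 in COS1NR and -5.05 in MFH1NR for larger bounds. Krt5 and Krt76 had no call in MSCs and could only be higher in the sarcomas. None of these could show a 2-fold decrease.

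Of the epithelial markers, Epcam, Cldn7, Esrp1, Grhl2 and Tjp3 had no call on any array, and Cdh1, the cadherin of epithelia, had an intensity of 30.1 in MSCs and was not well above background in the sarcomas. The summed level of the 10 markers was 0.512 times the 75th percentile in MSCs, against 0.786 in COS1NR and 0.662 in MFH1NR, to which Cldn3 gave the most. The number well above background was 5 in MSCs against 3 in each sarcoma, and Cdh1 and Rab25 had this call in MSCs only. Both lay close to the lowest level well above background, so that their bounds could not reach 2-fold, unlike those of Krt8 and Krt18. As log2 ratios in COS1NR and MFH1NR, the bounds were -0.43 and -0.76 for Cdh1 and -0.01 and -0.33 for Rab25. The part of epithelial cells in the keratin levels was not tested. Cldn4 and Cldn3, claudins of tight junctions, were 2.84-fold and 1.84-fold higher in COS1NR than in MSCs and 2.33-fold and 1.5-fold higher in MFH1NR, and a second probe of Cldn4 was well above background on no array.

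GFAP (Gfap), the type III filament of astrocytes, had a probe that is printed 10 times on each array. The intensities of the spots kept lay between 3.71 and 4.43 in MSCs, 6.03 and 6.76 in COS1NR and 6.19 and 6.76 in MFH1NR, and none was well above background. Of 9 other glial markers, S100b and Aqp4 were well above background on no array. Of the 7 with a ratio, 1 was at least 2-fold higher and 3 lower in COS1NR, and 1 was higher and 2 lower in MFH1NR, with median log2 ratios of -0.83 and -0.42. The shares over all genes were 20.8% higher and 20.1% lower in COS1NR and 19.4% and 21.6% in MFH1NR. Slc1a3, a glutamate transporter, had log2 ratios of -4.63 and -2.78, and Sox10, a factor of Schwann cells, had 1.13 and 0.70 at intensities up to 111. Mbp, the myelin basic protein, had -0.83 and 2.24 and was 8.42-fold higher in MFH1NR than in COS1NR. Aldh1l1, a folate enzyme of astrocytes, had a bound of -3.91 in COS1NR and a ratio of -0.42 in MFH1NR. Peripherin (Prph), a type III filament of peripheral neurons, had intensities of 183 in MSCs, against 123 in COS1NR and 107 in MFH1NR, with log2 ratios of -0.97 and -1.53. Internexin (Ina) was well above background in MSCs only, at 23.2, and the lens filament Bfsp1 had log2 ratios of -0.06 and -0.14.

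The lamins had different patterns. Lamin A/C (Lmna) had an intensity of 89860 in MSCs, against 115951 in COS1NR and 52986 in MFH1NR. After scaling, COS1NR and MSCs differed by less than the spread of spots, with a log2 ratio of -0.03, which turned positive with 5 of 11 alternatives and reached 0.46 at most. MFH1NR was 2.86-fold below MSCs and 2.81-fold below COS1NR. Without scaling its log2 ratio to MSCs was -0.76, where that of all genes was 0.79. It was also under 2-fold with quantile normalization (-0.99), with normexp background correction (-0.78) and, narrowly, with spike-in scaling. Spike-in scaling also brought the log2 ratio of MFH1NR to COS1NR to -0.70, under 2-fold.

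Lamin B1 (Lmnb1) had an intensity of 397 in MSCs, against 1394 in COS1NR and 4345 in MFH1NR. The level increased from MSCs to COS1NR to MFH1NR, and each step was larger than the typical disagreement of a gene's probes. It was 2.67-fold higher in COS1NR and 6.48-fold higher in MFH1NR than in MSCs, and 2.43-fold higher in MFH1NR than in COS1NR. Only 3.17% of all genes had a higher ratio of MFH1NR to MSCs. In MFH1NR the log2 ratios to MSCs were therefore -1.52 for Lmna and 2.70 for Lmnb1. For all 12 proliferation markers with a probe both sarcomas were over 2-fold above MSCs, as for 11.4% of all genes, at log2 ratios from 1.90 to 3.21 in COS1NR and from 1.28 to 3.21 in MFH1NR. Their medians of 2.52 and 2.51 were nearly equal, whereas Lmnb1 was higher in MFH1NR. Tpx2, a spindle factor, had log2 ratios of 2.87 and 3.21, and the mitotic regulator Birc5 of 2.69 and 2.92. The part of proliferating cells in the level of Lmnb1 was not tested.

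Of 8 partners of the lamins in the nuclear envelope with a probe, 1 was at least 2-fold higher and none lower in COS1NR, and 1 was higher and 1 lower in MFH1NR. Over all genes 20.8% were higher and 20.1% lower in COS1NR, and 19.4% and 21.6% in MFH1NR. The higher one was Tmpo, which encodes lamina-associated polypeptide 2, with intensities of 367 in MSCs, against 1791 in COS1NR and 4632 in MFH1NR and log2 ratios to MSCs of 1.89 and 2.90. Its order of cell types was that of Lmnb1. The lower one was Tmem43, a membrane protein of the inner envelope, with -0.95 and -1.13. The median of the list was 0.39 in COS1NR and -0.18 in MFH1NR.

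Prelamin A and lamin B1 are farnesylated and trimmed after synthesis. Among the 6 genes of that processing, none was 2-fold apart from MSCs in COS1NR and 1 was lower in MFH1NR, where 40.9% and 41.0% of all genes were 2-fold apart in either direction. Fntb, the beta subunit of farnesyltransferase, had log2 ratios to MSCs of 0.78 and -1.09, the latter in MFH1NR, and its other probe 0.73 and -0.84. The protease gene Zmpste24 had -0.35 and 0.11, and by its other probe -0.34 and 0.49. Of the others, Rce1 had 0.64 and 0.55, Icmt had 0.03 and -0.29, Fnta had -0.31 and -0.39, and Narf, which binds prelamin A, had 0.86 and 0.11.

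**Figure D4:**
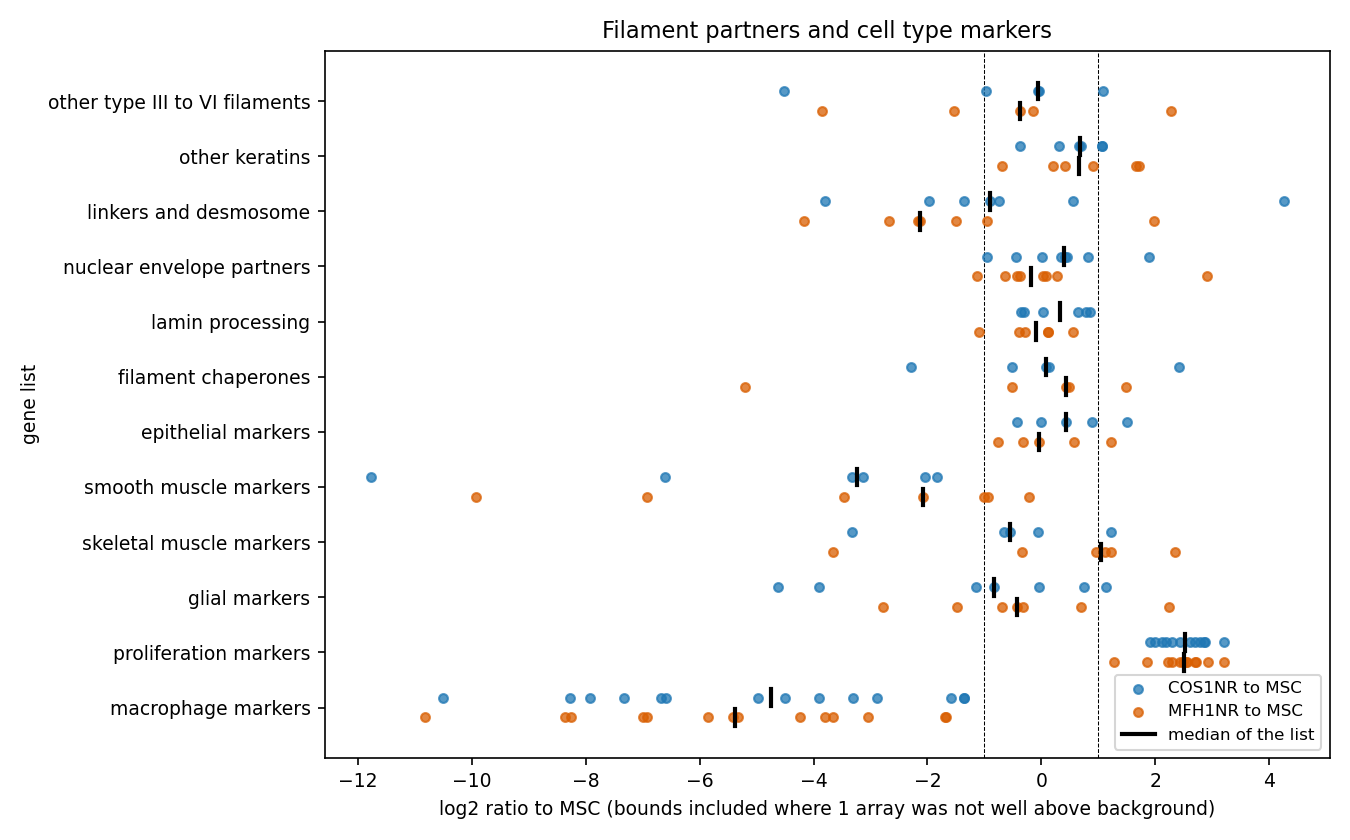
Log2 ratio to MSCs (x axis) of the genes of 12 lists (y axis) in COS1NR and MFH1NR; each point is 1 gene, bounds included, the black bar is the median of the list and dashed lines mark 2-fold. Macrophage and smooth muscle markers lie to the left and proliferation markers to the right, while lamin processing genes lie near 0.

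Linker proteins tie filaments to junctions and to the nucleus. Of 7 linkers and desmosomal genes well above background on at least 1 array, 3 were at least 2-fold lower in COS1NR and 5 in MFH1NR, and 1 was higher in each, with median log2 ratios of -0.90 and -2.13. The shares of all genes lower by as much were 20.1% and 21.6%, and those higher 20.8% and 19.4%. Plectin (Plec), the main cross-linker of vimentin, had intensities of 25048 in MSCs, against 19619 in COS1NR and 14932 in MFH1NR, with log2 ratios of -0.75 and -1.50. Dst, which encodes dystonin, had -0.90 and -2.17 by the brightest of 3 probes. Plakoglobin (Jup) had the call on the MSC array alone, and its level was lower by at least 13.8-fold in COS1NR and 18-fold in MFH1NR. Plakophilin 2 (Pkp2) was the one that was higher, with intensities of 34.1 in MSCs, against 857 in COS1NR and 226 in MFH1NR and log2 ratios of 4.26 and 1.97. Among 5 filament chaperones, Hspb8 was higher, with log2 ratios of 2.42 and 1.48, Cryab was lower and 3 were within 2-fold of MSCs in each sarcoma, where 40.9% and 41.0% of all genes were 2-fold apart.

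Between the sarcomas, MFH1NR was at least 2-fold higher than COS1NR for Nes and Lmnb1 and lower for Des and Lmna among 5 genes with a ratio, and Vim was within 2-fold. Over all genes, 12.5% were higher and 15.2% lower by as much, or 27.8% in either direction. This comparison does not use the MSC array, with its macrophage markers, higher serum and separate scan. The parts of macrophages, of serum and of the scan in the differences from MSCs were not tested.

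For each of the 5 genes seen on all arrays, the listed gene outside the family with the most similar pair of log2 ratios to MSCs was sought among 69 genes, over 3 arrays. The nearest to Vim was Bglap (osteocalcin), with -2.54 and -2.44, at a distance of 0.29. Plec was nearest to Lmna at 0.72, Acta1 to Lmnb1 at 0.40, the macrophage marker Cd68 to Des at 0.69 and Spp1 (osteopontin) to Nes at 1.19. With 3 arrays such likeness describes only these samples.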

How the data were processed

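Cy3-labeled cRNA of MSCs, COS1NR and MFH1NR was hybridized to 1 Agilent whole rat genome array each. The authors deposited spot intensities made with Agilent Feature Extraction (10.5.1.1 per the file headers, 9.1 per the labels), background-subtracted and detrended within the array, but not scaled between arrays. The series table equaled them on 3 of 3 arrays. Control spots and 187 to 217 outlier spots per array were left out, and spots of a probe were averaged in log2. Log2 intensities were taken relative to the 75th percentile (589.1 in MSCs, 773.7 in COS1NR and 994.3 in MFH1NR). No spot was saturated. RefSeq accessions were matched to a GRCr8 gene table, which named 16745 of 40816 probes for 13301 genes, and the array was designed on rn4. The probe of highest mean stood for a gene. A bound sets the brighter level against the lowest level well above background on the dim array, or the dim probe's own level where that is higher (17.9 in MSCs, 29.4 in COS1NR and 30.1 in MFH1NR). Genes at least 2-fold apart were counted, without a test, by a procedure checked on simulated data. Named were all members, the filament and lamin processing genes seen on an array, and by rule the 2 genes of each list with the largest absolute mean log2 ratio among those seen on all arrays, while others were named after their values were seen. The members and lists were chosen with earlier results of these data known. Alternatives were other scalings, normexp with an offset of 50, a common floor, other probes, filters and a 3-fold threshold. Python 3.11.15, numpy 2.4.6, pandas 2.3.3, limma 3.58.1 under R 4.3.3 and matplotlib 3.10.9 were used.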

Additional observations from a re-analysis of the deposited data

Results flagged for a closer look

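Among the genes named, 9 had ratios to MSCs of opposite sign in the sarcomas, each larger than the spread of spots of 0.072. The difference between the sarcomas' ratios was not tested, and both ratios share the MSC array. Nes had log2 ratios of -2.26 in COS1NR and 1.04 in MFH1NR. Nefh had -4.52, a bound, and 2.28. Synm had 1.09 and -3.85. Spp1 had -1.09 and 1.29. Mbp had -0.83 and 2.24. Fntb had 0.78 and -1.09, Myh3 had -0.66 and 1.12, and Tnnt1 had -0.55, a bound, and 1.23. Zmpste24 had -0.35 and 0.11, of which the latter was below the median disagreement of 0.31 between probes. Its other probe had -0.34 and 0.49. The signs of Zmpste24 depend on the scaling, since the unscaled intensities of its brighter probe were 508, 524 and 924 in MSCs, COS1NR and MFH1NR. Of all genes with both ratios, 2.37% were at least 2-fold from MSCs in opposite directions.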

How the results depend on the processing

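Of 19 log2 ratios of the filament genes, recomputed 210 times in all, none that passed 2-fold changed sign, and 15 stayed on their side of 2-fold. The others were Des in COS1NR, Nes and Lmna in MFH1NR, and Lmna between the sarcomas, which fell to -0.70 with spike-in scaling. Nes in MFH1NR was at 0.98 with normexp and 0.97 with the mean of its probes. The number of genes at least 2-fold apart between COS1NR and MSCs was 5, and 3 when a probe had to be well above background on both arrays, which leaves out Krt8 and Krt18. Between MFH1NR and COS1NR it was 4, and 2 with a 3-fold threshold. All other counts were within 1.5 times, from 5 to 7 for MFH1NR against MSCs. Without scaling, the median log2 ratio of all genes shifted by 0.41 in COS1NR and 0.78 in MFH1NR, and the shares of genes higher and lower than MSCs became 33.2% and 15.1% in COS1NR and 42.1% and 13.2% in MFH1NR. Spike-in scaling shifted the ratio of MFH1NR to COS1NR by 0.80, with 35.3% higher and 7.17% lower. No paired analysis was possible because each cell type had 1 array.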
